A study of Notamacropus eugenii with 7 samples.

Results

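Members of 3 gene clusters of microRNAs (miRNAs) were followed in small RNA libraries of milk and blood serum from lactating tammar wallabies (Notamacropus eugenii). The 5 members were chosen by name, as the entries miR-182 and miR-183 of the cluster that also holds miR-96, and miR-23a, miR-27a and miR-23b of the miR-23/27/24 clusters. These 5 are among 346 miRNAs named in the deposited table, of which 102 were listed in at least 1 library. The question was whether miRNAs cut from the same precursor transcript keep the same ratio from day to day and in both fluids.

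Milk was sequenced on days 35 and 75 (phase 2A of lactation), 120 and 175 (phase 2B) and 250 (phase 3), and serum on days 120 and 175, with 1 column of values each. The design text of the series speaks of duplicates for day 175, and whether the values of that day combine them is not known. Females were anaesthetised and given oxytocin before milking. According to the methods of the study, the milk of 4 to 10 females was pooled for each day and blood came from 2 lactating females on each day. The females bled were also milked on those days. The 7 libraries have no replicates, and milk and serum RNA were extracted with different kits, so that fluid and kit cannot be told apart. Days are those of the labels, from which parts of the text of the study differ by a few days for the libraries of days 75 and 120. Cells and fat were removed from milk before RNA extraction, so the cells from which a miRNA was released were not observed, and fewer releasing cells cannot be told apart from less miRNA released per cell.

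The cluster of miR-182 and miR-183 is transcribed as a single precursor that is cut into miR-183, miR-96 and miR-182. It is best known from sensory organs such as the retina and the inner ear, and it is also expressed in epithelia. MiR-182 and miR-96 repress FOXO1, a transcription factor of cell survival and metabolism. Mammals carry a pair of miR-23/27/24 clusters, with miR-23a, miR-27a and miR-24-2 in one and miR-23b, miR-27b and miR-24-1 in the other. MiR-23 represses glutaminase, which feeds glutamine into metabolism, and miR-27 represses PPARG, a regulator of fat cell differentiation and lipid synthesis. The primary transcript of a cluster is cut in the nucleus into separate hairpins, which are exported and processed one by one, so that mature members of a cluster can differ in level.

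Shares are given in percent of the reads that a library had on annotated miRNAs, rounded by the authors to 3 decimals. A printed value can thus be off by 0.0005 percentage points either way, an entry of 0 stands for a miRNA listed below that limit, and an empty entry is called absent. The deposited values hold no read counts, and intervals given here cover the rounding only. The listed shares of a library summed to between 95.8% and 99.6%. Markers of mammary epithelium were present in milk, where miR-148, miR-141, miR-429, miR-200b and miR-200c together took 6.11% to 21.1% of miRNA reads, against 0.209% and 0.112% in serum. MiR-148 alone took 5.37% of the 6.11% on day 35 and 14.6% of the 21.1% on day 175. On day 35, miR-200b was listed at 0 and miR-200c was absent.

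The 5 miRNAs were minor in every library. Together they took 0.192% of miRNA reads in milk on day 35, 0.056% on day 75, 0.080% on day 120, 0.302% on day 175 and 0.015% on day 250. The serum shares were 0.094% (day 120) and 0.056% (day 175). MiR-182 made up most of these sums on days 35, 120 and 175 in milk and on day 120 in serum. All 5 were above 0 in milk on days 75 and 175, and only miR-182 on day 35. Of the 5, 4 reached 0.005% in a library, and miR-23b did not.

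MiR-182 took 0.192% of milk miRNA reads on day 35, 0.016% on day 75, 0.057% on day 120, 0.247% on day 175 and 0.005% on day 250. The serum shares were 0.060% (day 120) and 0.024% (day 175). Its milk share was thus high on days 35 and 175 and low on days 75 and 250, and its rank among listed miRNAs moved between 23 on day 35 and 48 on day 250. From day 35 to day 75 it was 12.0-fold lower, and from day 75 to day 175 it was 15.4-fold higher. The latter rise was 2.81 (log2) on the centred log ratio, against 3.87 on log2(percent + 0.001). The centred log ratio is relative to the mean log2 value of 40 miRNAs in milk. From day 175 to day 250 miR-182 was 49.4-fold lower, and rounding alone left the day 250 share at 0.0182 to 0.0223 of that on day 175. Both serum values lay inside the range of the milk values.

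MiR-183, which is cut from the same precursor, was listed at 0 in milk on day 35. It took 0.002% on day 75, 0.014% on day 120, 0.021% on day 175 and 0.001% on day 250. The serum shares were 0.012% (day 120) and 0.006% (day 175). In the deposited shares it followed the course of miR-182 between days 75 and 250. The highest share was on day 175 and the lowest on day 250, 21.0-fold apart. With shares taken without miR-191, miR-183 changed by -0.10 (log2) from day 120 to day 175, and on the centred log ratio by -0.33. MiR-182 still rose, by 1.42 and 1.21. The rank of miR-183 in milk was between 41 and 61. The serum values again lay inside the milk range.

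**Figure D1:**
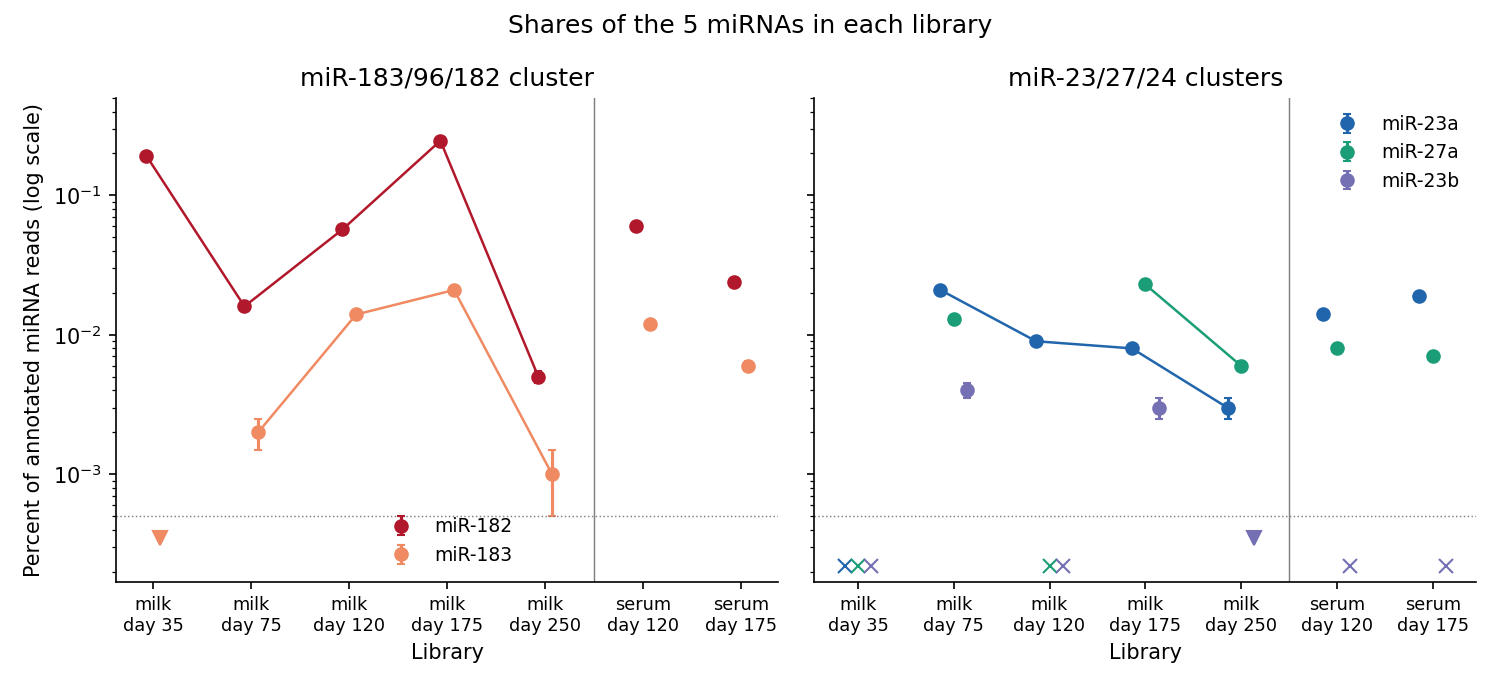
Share of miRNA reads of each of the 5 miRNAs in percent (log scale) for the 5 milk and 2 serum libraries, with bars for the rounding of the deposited values. Triangles below the dotted line at 0.0005% mark entries listed at 0 and crosses mark absent entries. MiR-182 and miR-183 both rise from day 75 to day 175 and fall to day 250, whereas miR-23a lies above miR-27a on day 75 and in serum and below it on days 175 and 250.

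The ratio of miR-182 to miR-183 was 8 in milk on day 75, with 6.20 to 11 allowed by rounding. It was 4.07 on day 120 (3.90 to 4.26), 11.8 on day 175 (11.5 to 12.1) and 5 on day 250 (3 to 11). In serum it was 5 on day 120 (4.76 to 5.26) and 4 on day 175 (3.62 to 4.45). MiR-182 was therefore the more abundant of both in each of these 6 libraries, and the serum ratios lay close to that of milk on day 120. The ratio on day 175 in milk stood above those of the other 5 libraries, and its rounding interval did not touch theirs.

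Over these 6 libraries the ratio covered a 2.94-fold range, between 2.69-fold and 4.02-fold when rounding is allowed for. In the same libraries the share of miR-182 covered a 49.4-fold range and that of miR-183 a 21.0-fold range. Without milk of day 175 the range of the log2 ratio was 1, against 1.56 with it. A ratio within a library does not depend on the denominator of the shares, so a change in an abundant miRNA such as miR-191 leaves it as it is.

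For comparison, the range was computed for all 1225 pairs of the 50 miRNAs that were above 0 in these 6 libraries. The median pair covered a 53.7-fold range. Only 10 pairs, or 0.816%, covered a smaller range than miR-182 and miR-183. This leaves out milk of day 35, where miR-183 was listed at 0. With that entry taken as 0.0005%, the range of the log2 ratio of miR-182 to miR-183 was 6.58 in place of 1.56. A range of 6.58 is above the median of all pairs over the 6 libraries, which was 5.75 on the log2 scale. The smallest range of the 10 pairs was that of miR-143 with miR-15a (1.69-fold). The 10 also held miR-10b with miR-10a (1.91-fold), let-7f with let-7a (1.92-fold), miR-221 with miR-451 (2.73-fold) and miR-375 with let-7b (2.74-fold). Of the 10, 4 included a miR-181 entry. This is a description of these libraries, since pairs share miRNAs and libraries and are not independent.

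**Figure D2:**
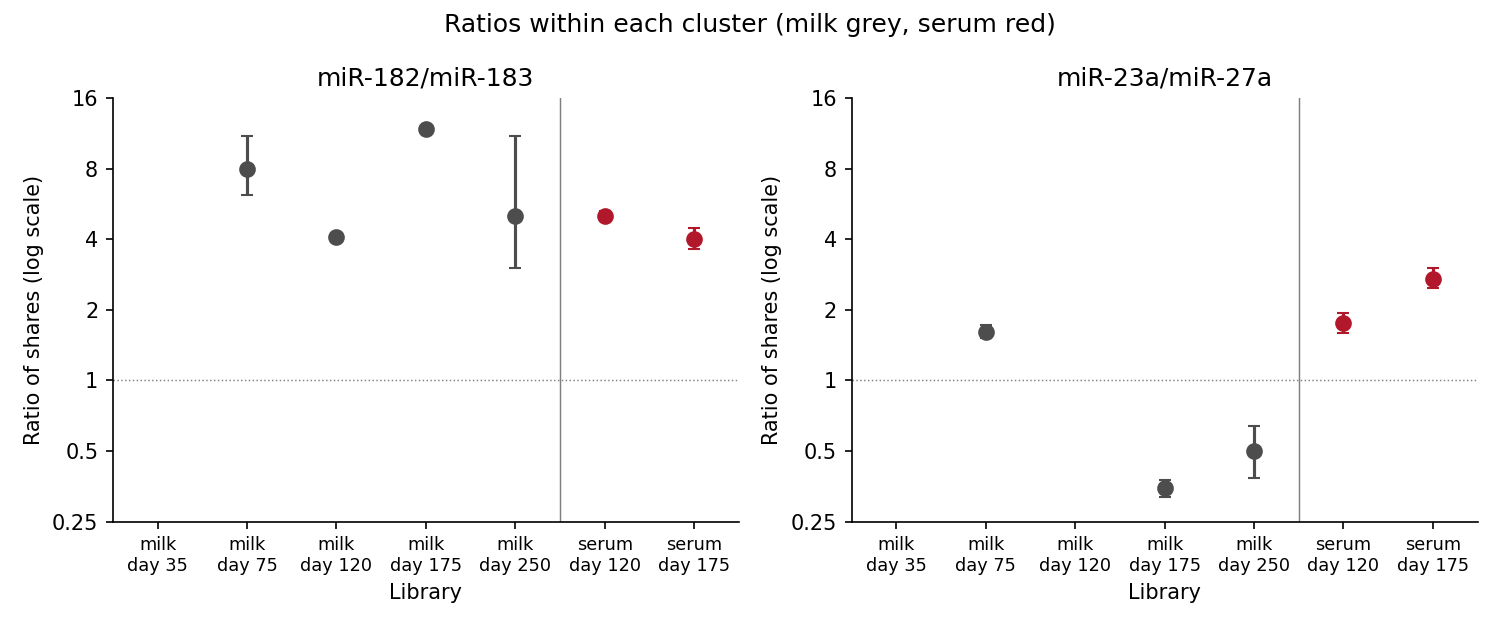
Ratio of the shares of miR-182 and miR-183 (left) and of miR-23a and miR-27a (right) per library on a log scale, with bars for the interval that rounding allows, milk in grey and serum in red. No point is drawn where a member was listed at 0 or absent. The left ratios lie between 4 and 11.8, while the right ones pass through 1, from 2.71 in serum on day 175 down to 0.348 in milk on day 175.

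Milk of day 35 departed from this pattern. With 0.192% of miR-182, the highest ratio seen elsewhere would go with 0.0163% of miR-183, whereas miR-183 was listed at 0, that is, under 0.0005%. Low values were rare in this library. Of its 42 miRNAs above 0, 1 was under 0.025%, or 2.38%, against 31.6% to 52.1% of the miRNAs above 0 in each of the other 6 libraries. A further 5 miRNAs were listed at 0 there. Whether the missing low values bear on the entry of miR-183 was not tested.

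MiR-96, the middle product of the same precursor, was far scarcer. It took 0.001% of miRNA reads in milk on day 175 and 0.002% in serum on day 120, was listed at 0 in milk on day 75 and was absent from the other 4 libraries. In the serum library miR-182 was 30.0-fold and miR-183 6-fold above it, and in the day 175 milk 247-fold and 21.0-fold. At such low shares rounding leaves the ratio of miR-182 to miR-96 on day 175 between 164 and 495, which does not overlap the serum interval of 23.8 to 40.3.

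MiR-23a was absent from milk on day 35. It took 0.021% of milk miRNA reads on day 75, 0.009% on day 120, 0.008% on day 175 and 0.003% on day 250. The serum shares were 0.014% (day 120) and 0.019% (day 175), a 1.36-fold rise. Its milk share was highest on day 75 and declined afterwards, 2.33-fold by day 120 and 2.67-fold from day 175 to day 250. The shares of days 120 and 175 differed by no more than rounding allows, a log2 change of -0.15. That change was -0.79 with shares taken without miR-191 and -1.04 on the centred log ratio.

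MiR-27a took another course. It was absent from milk on days 35 and 120, and took 0.013% on day 75, 0.023% on day 175 and 0.006% on day 250. The serum shares were 0.008% (day 120) and 0.007% (day 175), values that rounding does not separate. From day 75 to day 175 miR-27a was 1.77-fold higher in milk, whereas miR-23a was 2.63-fold lower. The direction for miR-27a depended on the scale. On the centred log ratio miR-27a changed by -0.28 (log2) and miR-23a by -2.34. At the highest ratio seen elsewhere, the 0.009% of miR-23a in milk on day 120 would go with 0.0033% of miR-27a, which was absent.

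The ratio of miR-23a to miR-27a was 1.62 in milk on day 75 (1.52 to 1.72 by rounding), 0.348 on day 175 (0.319 to 0.378) and 0.5 on day 250 (0.385 to 0.636). In serum it was 1.75 on day 120 (1.59 to 1.93) and 2.71 on day 175 (2.47 to 3). MiR-23a was thus above miR-27a in 3 of the 5 libraries and below it in 2, and no interval included 1. On day 175 the ratio was above 1 in serum and below 1 in milk.

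The ratio covered a 7.80-fold range (6.53-fold to 9.40-fold by rounding). The shares covered 7-fold for miR-23a and 3.83-fold for miR-27a in these 5 libraries. The excess over the range of miR-23a was within rounding. Without serum of day 175 the range of the log2 ratio was 2.33, against 2.96 with it, and below the 2.81 of miR-23a. Of all 1485 pairs of the 55 miRNAs above 0 in them, 13.2% had a smaller range, and the median pair covered 43.6-fold. In the same 5 libraries, the pairs of members from different clusters had ranges from 9.75-fold for miR-183 with miR-27a to 40.5-fold for miR-182 with miR-23a.

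**Figure D3:**
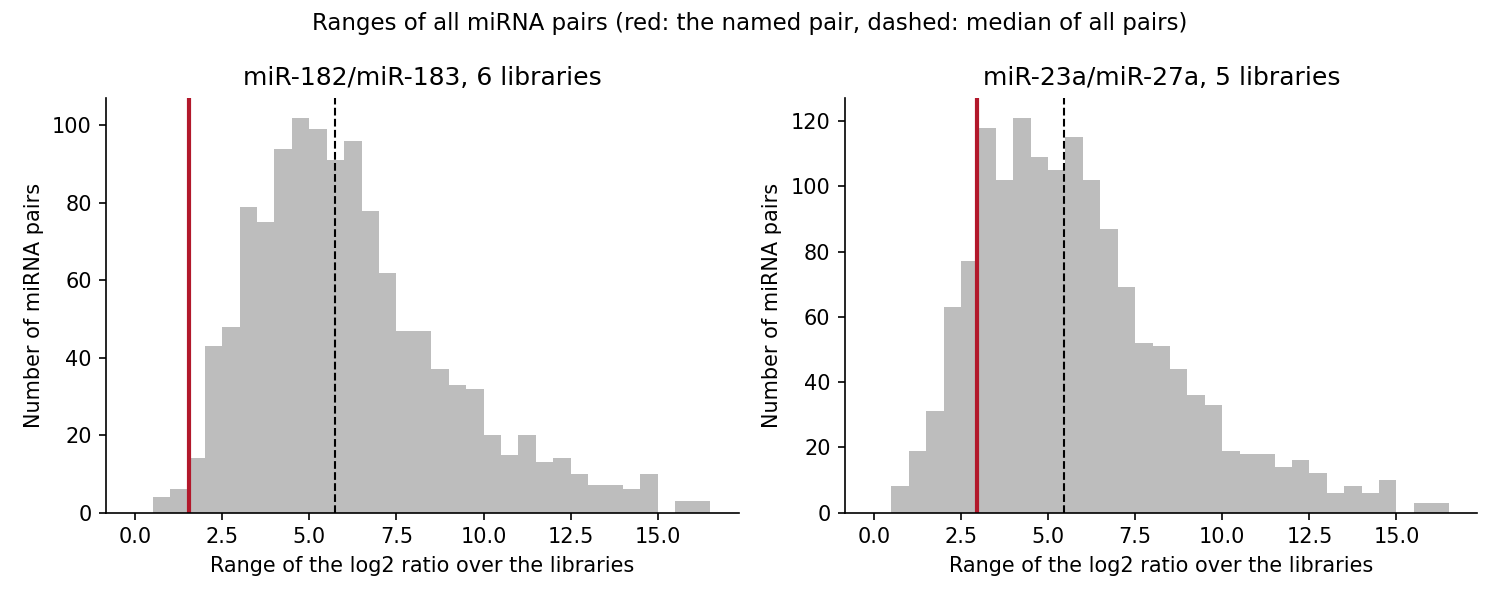
Number of miRNA pairs (vertical axis) by the range of their log2 ratio over the 6 libraries of the miR-182 and miR-183 pair (left, 1225 pairs) and the 5 libraries of the miR-23a and miR-27a pair (right, 1485 pairs). The red lines mark the named pairs, at 1.56 and 2.96, and the dashed lines the medians of all pairs, at 5.75 and 5.45.

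MiR-23b was the scarcest of the 5. It took 0.004% of milk miRNA reads on day 75 and 0.003% on day 175, was listed at 0 on day 250, and was absent from milk on days 35 and 120 and from both serum libraries. Its cluster partner miR-27b was listed in every library. MiR-27b took 0.027% of milk miRNA reads on day 35, 0.153% on day 75, 0.101% on day 120, 0.330% on day 175 and 0.266% on day 250, and 0.235% and 0.328% in serum on days 120 and 175.

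MiR-27b was 38.3-fold above miR-23b on day 75 and 110-fold on day 175 (94.1 to 132 by rounding), the only libraries in which both were above 0. In serum, where miR-27b ranked 19 and 15, miR-23b was absent. MiR-27b also exceeded its paralog miR-27a, between 11.8-fold in milk on day 75 and 46.9-fold in serum on day 175. The entries miR-24 and miR-24-2 were absent from all 7 libraries.

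Since miR-23a and miR-23b, and likewise miR-27a and miR-27b, are near-identical, their reads could be split between entries by the counting. Summing the paralogs, the ratio of miR-23 to miR-27 was 0.151 in milk on day 75, 0.089 on day 120, 0.031 on day 175 and 0.011 on day 250. It fell at each step between these days. In serum it was 0.058 on day 120 and 0.057 on day 175. The summed ratio was thus alike in both serum libraries and covered a wider range in milk than that of the single entries. It largely set miR-23a against miR-27b, which belong to different clusters. On day 75 miR-27b took 0.153% of the 0.166% of summed miR-27, and on day 250 0.266% of 0.272%. MiR-23a took 0.021% of the 0.025% of summed miR-23 on day 75, and 0.008% of 0.011% on day 175.

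A list of 18 pairs from clusters common to mammals was compared, of which 9 had both members above 0 in at least 4 libraries. In the 6 libraries used for miR-182 and miR-183, 6 pairs of the list were complete. Their ranges went from 1.92-fold for let-7a with let-7f to 11.9-fold for miR-221 with miR-222a, and that of miR-182 with miR-183 was the second smallest. MiR-19a with miR-19b covered 3.42-fold and miR-15a with miR-16 8.13-fold. The 6 pairs had a median of 5.28-fold, against 53.7-fold over all pairs in these libraries. They include miR-182 with miR-183 itself, and let-7a both with let-7f and with let-7d (8.19-fold). As they are few and share miRNAs and libraries, this is a description without a test.

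By the correlation of log2(percent + 0.001) over the 7 libraries, the miRNAs most like miR-182 among the 69 that reached 0.005% in a library were let-7i (r = 0.85), miR-203 (r = 0.78) and miR-101 (r = 0.75). Those most like miR-183 were miR-460 (r = 0.85), miR-100 (r = 0.70) and miR-19a (r = 0.68). MiR-183 stood in place 17 for miR-182, with r = 0.31. Over the 6 libraries without milk of day 35, a choice made after the values were seen, miR-182 and miR-183 were each the closest to the other, with r = 0.95. MiR-23a was most like miR-146a (r = 0.75), miR-19a (r = 0.72) and miR-27b (r = 0.71), and miR-27a most like miR-19a (r = 0.85), miR-27b (r = 0.81) and miR-210 (r = 0.79). The correlation of miR-23a with miR-27a was 0.59 over 7 libraries and 0.16 without day 35. These correlations mix milk and serum libraries, which share a denominator each, and are given as a description.

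Across the last step of lactation, from day 175 to day 250, all 5 miRNAs were lower in milk beyond rounding, against 51.2% of the 84 miRNAs above 0 on either day. The fall was 49.4-fold for miR-182, 21.0-fold for miR-183, 3.83-fold for miR-27a and 2.67-fold for miR-23a, and miR-23b went from 0.003% to a listing at 0. MiR-27b was 1.24-fold lower. From day 175 to day 250 the summed share of the epithelial markers went from 21.1% to 13.8%. Of these, miR-148 went from 14.6% to 9.31%, miR-141 from 4.96% to 4.17%, miR-429 from 1.38% to 0.205% and miR-200b from 0.124% to 0.067%. MiR-200c went the other way, from 0.039% to 0.046%. The red blood cell markers miR-451, miR-144 and miR-486 together went from 0.047% to 0.009%. The part of both lists in the falls was not tested. With shares taken without miR-191, the same 5 were lower, as were 64.3% of all 84 with no allowance for rounding. On the centred log ratio, which is relative to the mean log2 value of 40 miRNAs in milk, the same 5 were lower, as were 39.3% of all 84. On the latter scale each fall was smaller by 1.07 (log2). The change was then -4.30 for miR-182, -2.39 for miR-183, -0.93 for miR-23b, -0.71 for miR-27a and -0.10 for miR-23a, against -5.37, -3.46, -2, -1.78 and -1.17 on log2(percent + 0.001). For miR-23a the change on the centred log ratio was within rounding (-0.37 to 0.15). Of the 4 that reached 0.005% in milk, 3 had their highest milk share on day 175, against 40.6% of the 64 miRNAs that reached it. The number fell to 1 of 4 with shares taken without miR-191 (miR-27a, against 32.8% of the 64) and to 0 of 4 on the centred log ratio (against 17.2%).

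Between days 120 and 175, when both fluids were sequenced, miR-182 and miR-183 moved in opposite directions in milk and serum. MiR-182 was 4.33-fold higher in milk on day 175 and 2.5-fold lower in serum. MiR-183 was 1.5-fold higher in milk and 2-fold lower in serum. Such a pattern beyond rounding was found for 25.6% of the 90 miRNAs above 0 in these libraries, and for 2 of the 5 members. MiR-191, an abundant miRNA, changed by -2.18 on the log2 scale in milk between these days. When shares were taken without it, all log2 changes in milk were lower by 0.69, before the pseudocount is added. MiR-182 then still rose, by 1.42, but miR-183 changed by -0.10, and on the centred log ratio by -0.33. The red blood cell markers together took 0.002% in milk on day 120 and 0.047% on day 175, and 0.042% and 0.055% in serum, with miR-486 absent throughout. The epithelial markers together went from 9.63% to 21.1% in milk and from 0.209% to 0.112% in serum. In serum that fall was carried by miR-148 (0.200% to 0.088%), while miR-141 went from 0.002% to 0.010% and miR-429 from 0.007% to 0.014%. The white blood cell and platelet markers miR-223, miR-150 and miR-142 together went from 0.008% to 0.002% in milk and from 0.041% to 0.120% in serum. The endothelial marker miR-126 went from 0.002% to 0.007% in milk and from 0.034% to 0.050% in serum. The part of these lists in the changes of miR-182 and miR-183 was not tested.

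**Figure D4:**
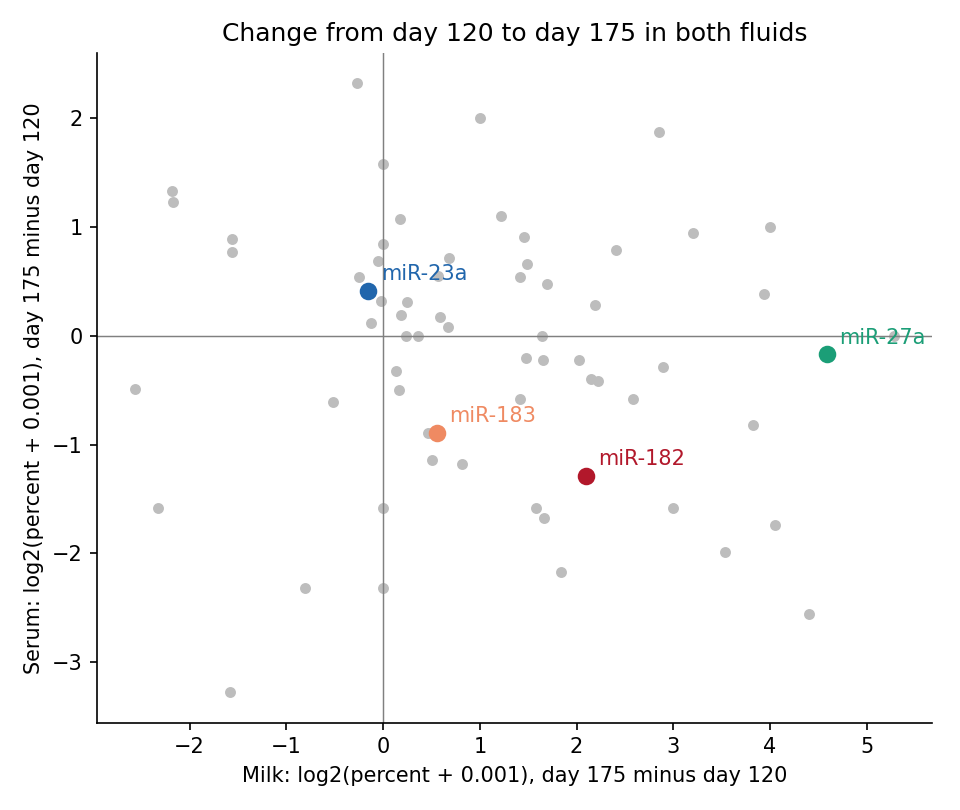
Difference in log2(percent + 0.001) between day 175 and day 120 in milk (horizontal) and in serum (vertical) for each miRNA that reached 0.005% in any of the 4 libraries, with the members in colour. MiR-182 and miR-183 lie at the lower right, higher in milk and lower in serum, at 2.10 and 0.55 in milk, and miR-23a lies at -0.15 in milk and 0.42 in serum.

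The milk to serum ratio of both thus differed between the days. On day 120 miR-182 was 0.950 and miR-183 1.17 times its serum share. On day 175 the ratios were 10.3 (10.1 to 10.5 by rounding) and 3.50 (3.15 to 3.91). MiR-23a was lower in milk on both days, with ratios of 0.643 and 0.421. MiR-27a was absent from milk on day 120 and 3.29 times its serum share on day 175. These ratios depend on miR-191 and on miR-10b, which took most of the serum reads. With both left out, a scale chosen after the values were seen, miR-182 was 0.451 and miR-183 0.554 times its serum share on day 120, and 3.58 and 1.22 times on day 175. On that scale miR-23a was 0.305 and 0.146 times its serum share, and miR-27a 1.14 times on day 175.

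None of these differences between fluids was called in a test across miRNAs. Milk and serum of days 120 and 175 were compared in limma on log2(percent + 0.001), with the days in place of replicates, so that the p-values measure only the spread between these libraries. Of 75 miRNAs tested, 14 had a Benjamini-Hochberg adjusted p under 0.05, or 18.7%, and 0 did when any of the 4 libraries was left out or the day was taken as a block. Of the members 4 were tested and 0 were called, and 0 had an unadjusted p under 0.05, against 22 of all 75. MiR-23b did not pass the filter of 0.001% in 2 libraries. The log2 difference of milk over serum was 1.62 for miR-182 (standard error 1.03, limma adjusted p = 0.37) and 0.93 for miR-183 (standard error 0.79, limma adjusted p = 0.47). For miR-182 it was 0.57 without milk of day 175 and 2.67 without milk of day 120. It was 0.33 for miR-182 with all 5 milk libraries, 0.34 without miR-191 and miR-10b and 0.67 on the centred log ratio. The difference was -0.87 for miR-23a (standard error 0.74, limma adjusted p = 0.47) and -0.79 for miR-27a (standard error 1.53, limma adjusted p = 0.80). Under the same 3 settings it was -1.52, -2.15 and -1.82 for miR-23a, and -0.85, -2.43 and -1.74 for miR-27a. The sign turned for miR-183 with all 5 milk libraries (-1.06), with shares taken without miR-191 and miR-10b (-0.28) and on the centred log ratio (-0.018), and for miR-27a without milk of day 120 (1.5) and with a pseudocount of 0.01 (0.054). Over all 5 milk and both serum libraries, the values of 39.1% of 69 miRNAs did not overlap between fluids, and those of the members overlapped in each case.

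The ratios were also compared between the fluids, with the days in place of replicates, so that the SDs cover the spread between days. Milk of days 75 and 250 had no serum library of the same day. The mean log2 ratio of miR-182 to miR-183 was 2.73 ± 0.69 in milk (SD, n = 4) and 2.16 ± 0.23 in serum (SD, n = 2), a difference of 0.56 (two-sided exact permutation test, p = 0.40, the smallest that the 15 splits allow being 0.13). That of miR-23a to miR-27a was -0.61 ± 1.16 in milk (SD, n = 3) and 1.12 ± 0.45 in serum (SD, n = 2), a difference of -1.73 (two-sided exact permutation test, p = 0.20, the smallest that the 10 splits allow). The ratios below 1 were those of milk on days 175 and 250, and the rounding interval of milk on day 75 overlapped that of serum on day 120. With 2 ratios tested, both adjusted p-values were 0.40 (exact permutation test). Neither test could reach 0.05 with so few libraries.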

How the data were processed

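The authors cleaned and trimmed the reads and counted known miRNAs of miRBase version 19 with miRanalyzer. The deposited values are percent of the annotated miRNA reads of each library, rounded to 3 decimals, and all 7 columns were used. No sequence of the members was used here. The members and lists were chosen with earlier results of these data known.

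Ratios were formed where both members were above 0, with the extremes that rounding by 0.0005 allows. Absent entries were taken as 0 elsewhere. Fluids were compared at days 120 and 175 with limma 3.58.1 (R 4.3.3) on log2(percent + 0.001), over miRNAs with at least 0.001% in 2 of 4 libraries, as the plan foresaw for values that are not counts, and ratios by exact permutation tests in scipy 1.17.1. The scripts were tested on simulated data. Python 3.11.15, numpy 2.4.6, pandas 2.3.3 and matplotlib 3.10.9 were used. Per the study, milk and serum of a day shared females, and a fit with a block for day was tried, although the changes of both fluids between the days correlated at -0.12 over 75 miRNAs. Milk RNA came from a mirVana kit and serum RNA from a miRNeasy kit. For lack of replicates, a shift of over 1.5-fold under an alternative is reported as a move. The miRNAs named are the members, their cluster partners, pairs of the cluster list and the 3 closest in pattern to each member, and the pairs of smallest range were named after their values were seen.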

Additional observations from a re-analysis of the deposited data

Results flagged for a closer look

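MiR-182 and miR-183 changed in opposite directions in milk and serum between days 120 and 175, with 1 library of each fluid per day. The log2 change in milk minus that in serum was 3.38 for miR-182 and 1.45 for miR-183. The difference was not tested, as a day and fluid had 1 library. For miR-183 the rise in milk was lost when shares were taken without miR-191, at -0.10, while the fall in serum was kept, at -0.86.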

How the results depend on the processing

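The range of the log2 ratio of miR-182 to miR-183, 1.56, went from 1 to 1.56 with each library left out in turn and moved to 6.58 when the entry listed at 0 in milk at day 35 was taken as 0.0005%. That of miR-23a to miR-27a, 2.96, went from 2.33 without serum of day 175 to 2.96, and moved to 3.77 with paralogs summed, also in the same 5 libraries, a choice made after the data were examined. Rounding and a minimum of 0.005% moved neither by over 1.5-fold. The difference of the ratios between fluids kept its direction with each library left out, at 0.29 to 0.80 for miR-182 to miR-183 and -2.39 to -1.28 for miR-23a to miR-27a. On the days shared by both fluids they were 0.63 and -2.65, the latter from 1 milk library and with no test. The log2 ratio of miR-183 in milk over serum on day 120 reversed to -0.85 with shares taken without miR-191 and miR-10b.

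In limma the 14 calls became 27 on the centred log ratio and 0 under a replicate block for day (20 at an unadjusted p under 0.05). With each library left out they were 0 in each case (15 to 24 unadjusted), where the lone library of a fluid is assumed to vary like the others. The members had 0 calls under each alternative that kept all libraries of days 120 and 175, the block included. With shares taken without miR-191 and miR-10b, 1 of the 4 members tested had an unadjusted p under 0.05 in limma, as did 29 of all 75 miRNAs. The log2 difference of miR-182, 1.62, was 0.33 with all 5 milk libraries, 0.34 with shares taken without miR-191 and miR-10b, 0.67 as centred log ratios and 0.57 to 2.67 with each library left out. That of miR-23a, -0.87, was -1.52, -2.15 and -1.82 under the first 3 of these. The log2 difference of miR-183 reversed to -1.06 with all 5 milk libraries, -0.28 with shares taken without miR-191 and miR-10b, and -0.018 as centred log ratios. That of miR-27a reversed to 0.054 with a pseudocount of 0.01, and was between -3.085 and 1.5 with each library left out, the latter without milk of day 120. The cause was not tested. Of 80 values of member changes between milk days under alternatives, 77 kept their direction, but 34 moved by over 1.5-fold. The 3 reversed were miR-183 from day 120 to day 175, at -0.10 without miR-191 and -0.33 on the centred log ratio, and miR-27a from day 75 to day 175, at -0.28 on the centred log ratio. The deposited values carry no counts, and shares under 0.005% rest on 1 to 4 units of the last deposited decimal.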
